A study of Mus musculus with 8 samples.

Results

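The chemokine system of mouse liver was examined as 56 of the 16122 gene rows of a deposited count table. Members were set by a naming rule, with earlier results of these data known. The rule takes every row whose gene symbol begins with Ccl, Cxcl, Cx3cl, Xcl, Ccr, Cxcr, Cx3cr, Xcr or Ackr followed by a digit. They comprise 33 ligand rows, of which 21 are CC, 10 CXC and 2 CX3C or XC ligands, and 23 receptor rows, of which 19 are signalling and 4 atypical receptors. The 56 rows carry 55 symbols, because Ackr4 is listed under 2 identifiers, and the second of these (ENSMUSG00000041748) held 1 read in all.

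Chemokines are small secreted proteins that attract leukocytes, and they are named CC, CXC, CX3C or XC after the spacing of conserved cysteines near the amino terminus. They act on G protein-coupled receptors, while atypical receptors bind ligands without G protein signalling and take them up or hold them. In the liver, CCR2 and its ligand CCL2 are known for drawing monocytes from blood, CX3CR1 for marking monocyte-derived cells, and CXCL12 for retaining CXCR4-bearing cells.

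Bulk RNA was sequenced from frozen livers of male C57BL/6J mice, all of wild-type genotype, bought at 8 weeks of age and kept for 28 weeks on a normal diet or on one high in fat, cholesterol and fructose. The labels give 4 libraries to a group called NASH (nonalcoholic steatohepatitis, an inflamed fatty liver), and the remaining 4 to WT. That NASH stands for the rich diet is a reading made here, since the labels leave the link between name and diet unsaid, and the table's header calls the WT columns Control. Nothing in the labels says that the libraries are from different animals, so p-values reflect variation between these libraries, which may be technical.

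Library totals ran from 25760117 to 32684719 counts. Total counts did not differ detectably between the groups (exact two-sided permutation test, p = 0.0571, adjusted over 2 library measures 0.114), and 4 against 4 libraries cannot give a p below 0.0286. Of hepatocyte markers, 7 of 7 were tested and none passed. All 7 had a negative log2 fold change, and 5 had each NASH library below each WT library, against 12.2% of all genes. Most of their summed level was Alb, with means of 66120 in NASH and 131302 in WT on the scale given next. Their summed level was 42866 to 99998 CPM (a gene's count scaled by library size and TMM factor, edgeR's correction for composition) in NASH and 141135 to 172997 CPM in WT, and NASH replicate 3 was the lowest. That library also had the largest TMM factor. The factors were 0.967, 1.05, 1.40 and 1.15 in NASH replicates 1 to 4 and 0.873, 0.901, 0.894 and 0.877 in WT replicates 1 to 4. Each NASH factor was thus above each WT factor, so the scaling differs between the groups.

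Promoter sequences are shown first for members that hold a match to the NF-kappa-B motif just before their start: the neutrophil-attracting CXC ligands Cxcl1, Cxcl2 and Cxcl3, neighbours on chromosome 5, the CC ligand Ccl9 and its receptor Ccr1. NF-kappa-B is a transcription factor that responds to inflammatory signals. Its degenerate consensus was searched on both strands in the 250 bases before the start of every gene in a RefSeq table (GRCm38.p6), and this form was chosen after matches to another had been seen. It occurred in 2382 of 32851 promoters (7.25%) and in 11 of the 43 member symbols with a promoter there, the others being Cxcl10, Ccl1, Ccl20, Ccr3, Ccr6 and Ackr2. The percentage counts promoters and the member count is of symbols, so the measures differ where a symbol has several promoters. Each sequence runs 5′ to 3′ on the gene's own strand and stops before the gene as GENCODE M21 annotates it, with the bases of a match on either strand in capitals. They are chr5:90891095-90891240 (+), chr5:90903749-90903870 (+), chr5:90785951-90786100 (+), chr11:83578637-83578786 (-) and chr9:123968693-123968842 (-), in the order given.
Cxcl1: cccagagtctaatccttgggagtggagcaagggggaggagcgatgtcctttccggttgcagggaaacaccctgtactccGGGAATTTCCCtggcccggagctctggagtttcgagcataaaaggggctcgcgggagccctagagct
Cxcl2: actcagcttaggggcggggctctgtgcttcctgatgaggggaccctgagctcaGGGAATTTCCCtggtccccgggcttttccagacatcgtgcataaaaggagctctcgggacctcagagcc
Cxcl3: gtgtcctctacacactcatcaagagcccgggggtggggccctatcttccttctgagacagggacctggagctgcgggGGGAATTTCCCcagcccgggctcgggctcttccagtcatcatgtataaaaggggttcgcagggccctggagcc
Ccl9: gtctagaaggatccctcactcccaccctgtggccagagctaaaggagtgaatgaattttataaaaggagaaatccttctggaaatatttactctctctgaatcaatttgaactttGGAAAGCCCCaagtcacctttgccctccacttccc
Ccr1: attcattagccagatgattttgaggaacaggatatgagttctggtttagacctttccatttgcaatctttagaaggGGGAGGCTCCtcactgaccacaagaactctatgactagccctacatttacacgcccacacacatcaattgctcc
In the 3 CXC ligands the run in capitals is the same, GGGAATTTCCC, and holds a match on each strand that overlap each other. Of the 5 genes, Ccl9 and Ccr1 passed the test between the groups, Cxcl1 and Cxcl2 did not, and Cxcl3 fell below the filter on low counts. Among the other members with a match, Cxcl10 and Ackr2 did not pass, and Ccl1, Ccl20, Ccr3 and Ccr6 were below the filter. A match describes letters only.

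After the filter, 30 members were tested, 19 ligands and 11 receptors. Between NASH and WT, 13 were higher, 2 were lower and 15 did not pass an adjusted p of 0.05 (edgeR quasi-likelihood test, p adjusted over all 12351 genes tested). Over all genes tested, 18.9% were called, 12.9% higher in NASH and 6.00% lower, against 50% and 43.3% higher among the 30 members. Of the 30 members, 24 had a positive log2 fold change, with a median of 1.25 where that of all genes was 0.01. All these figures describe only the members that passed the filter, and 11 of the 30 were above its 0.360 CPM in each NASH library but not in each WT library, so they could enter through the group where they were higher. Groups did not overlap, with each NASH library above each WT library, for 15 members, against 14.6% of all genes, and 2 members had each NASH library below, against 12.2% (26.8% in either direction). With library totals alone as the scaling, which moved the median of all genes by 0.36 on the log2 scale, 16 members were higher and 1 was lower, and all genes split 3071 to 220 in place of 1597 to 741.

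**Figure D1:**
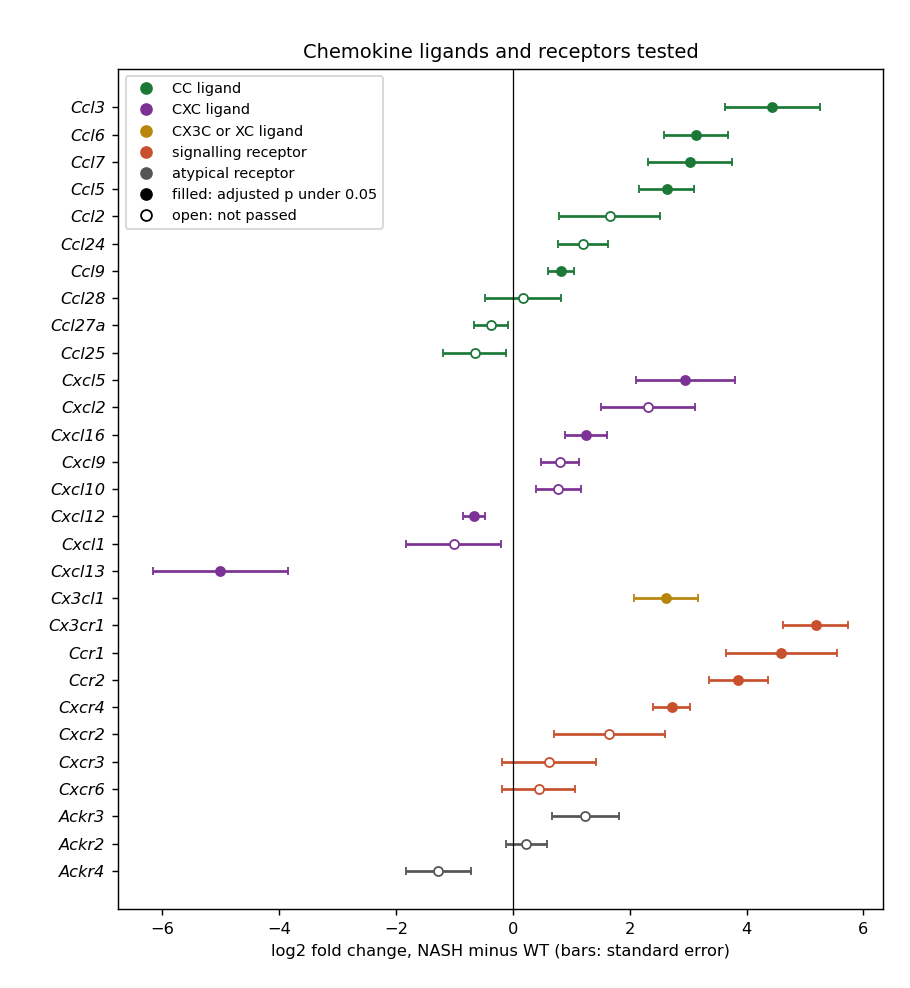
Log2 fold change (NASH minus WT, x axis) of tested members (y axis), coloured by role, with its standard error as a bar and filled points for an adjusted p under 0.05. Filled points lie to the right of 0 for 12 of the members plotted, and Cxcl12 and Cxcl13 are the 2 filled points to the left.

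Several receptors known for leading monocytes and other leukocytes into tissue were higher in NASH, by 6.6-fold for Cxcr4 and 36.3-fold for Cx3cr1. Of 19 signalling receptor rows, 8 were tested, of which 5 rose, none fell and 3 did not pass, with a median log2 fold change of 2.72. Over all genes tested, 12.9% were higher in NASH and 6.00% lower. Ccr1, Cx3cr1 and Cxcr2 were above the filter's cutoff in each NASH library but not in each WT library, so these receptors could enter through NASH. Summed over all 23 receptor rows, the level was 50.5, 61.9, 177 and 132 CPM in NASH replicates 1 to 4 and 16.4, 20.0, 14.0 and 16.5 CPM in WT replicates 1 to 4. The lowest NASH library was thus above the highest WT library. In bulk RNA, more cells of a type and more RNA per cell cannot be told apart, and the same holds for fewer cells and less RNA.

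Cx3cr1 (ENSMUSG00000052336, chr9:119901616-120069879), the receptor for CX3CL1 on monocyte-derived cells, was at 8.70, 10.5, 38.8 and 21.4 CPM in NASH replicates 1 to 4 and at 0.716, 0.365, 0.651 and 0.455 CPM in WT replicates 1 to 4. Every NASH library exceeded every WT library, and NASH replicate 3 was highest. The means were 19.8 ± 13.8 and 0.547 ± 0.164 CPM (SD, n = 4 each), and the log2 fold change was 5.18 ± 0.55 (SE, edgeR adjusted p = 0.00271), the largest among the tested members. Cx3cl1 (ENSMUSG00000031778, chr8:94772009-94782427), its ligand and a membrane-anchored chemokine, stood at 2.17, 3.18, 7.36 and 3.52 CPM in NASH against 0.379, 0.948, 0.240 and 1.05 CPM in WT. The groups did not overlap, with a log2 fold change of 2.63 ± 0.55 (edgeR adjusted p = 0.0145). Without WT replicate 1 the Cx3cl1 value was 2.44 and did not pass (edgeR adjusted p = 0.0516).

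Ccr2 and Ccr1 lie close together on chromosome 9. Ccr2 (ENSMUSG00000049103, chr9:124101950-124113557), the receptor for CCL2 and CCL7, was at 11.0, 14.8, 49.2 and 31.6 CPM in NASH and at 1.43, 2.77, 1.64 and 1.5 CPM in WT. NASH replicates 3 and 4 were the high libraries, and even the lowest NASH library was above the highest WT library. The log2 fold change was 3.86 ± 0.50 (edgeR adjusted p = 0.00420), from 26.7 ± 17.5 against 1.84 ± 0.628 CPM (SD, n = 4 each). Ccr1 (ENSMUSG00000025804, chr9:123962124-123968692), a receptor for CCL3 and CCL5, was at 1.46, 2.26, 17.1 and 11.4 CPM in NASH and at 0.168, 0.802, 0.103 and 0.245 CPM in WT. NASH replicates 1 and 2 were several times below replicates 3 and 4 but above all of WT. Its log2 fold change was 4.60 ± 0.95 (edgeR adjusted p = 0.0143), and it was 3.90 without NASH replicate 3 and 5.51 without WT replicate 2, still past the threshold. Without WT replicate 1 it was 4.39 and did not pass (edgeR adjusted p = 0.0518), and limma-voom did not call it (4.46, adjusted p = 0.112).

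Cxcr4 (ENSMUSG00000045382, chr1:128588199-128592293), the receptor for CXCL12, was at 3.74, 4.78, 8.58 and 6.11 CPM in NASH and at 1.01, 0.948, 0.651 and 0.909 CPM in WT. The NASH libraries varied less for Cxcr4 than for Ccr2 or Cx3cr1 and did not overlap WT. Means were 5.80 ± 2.09 and 0.880 ± 0.158 CPM (SD, n = 4 each), and the log2 fold change was 2.72 ± 0.32 (edgeR adjusted p = 0.00343). Per kilobase of exon, mean levels in NASH were 4.41 CPM for Cx3cr1, 3.95 for Ccr2, 3.21 for Cxcr4 and 2.84 for Ccr1, closer to each other than the spread between NASH libraries. In WT the order per kilobase differed, with Cxcr4 first of these 4 at 0.487 CPM and Ccr1 last at 0.116 CPM.

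Cxcr2, Cxcr3 and Cxcr6 did not pass. Cxcr2, the receptor for neutrophil-attracting CXC ligands, was at 0.709, 0.629, 6.32 and 4.45 CPM in NASH and at 1.01, 2.19, 0.0685 and 0.630 CPM in WT, and it is named after its values were seen. NASH replicates 1 and 2 lay within the WT range and replicates 3 and 4 above it, and the log2 fold change was 1.65 ± 0.95 (edgeR adjusted p = 0.239). Neither the 0.98 without NASH replicate 3 nor the 2.42 without WT replicate 2 passed. The summed level of 9 neutrophil markers moved with it, at 2.64, 3.07, 82.3 and 23.5 CPM in NASH and 0.925 to 4.81 CPM in WT, with 3 tested and none called. Among these markers, Ly6g was at 0 in every library of both groups except NASH replicate 3, where it was at 0.152 CPM. The part of these markers in the Cxcr2 values was not tested. Cxcr3 and Cxcr6, receptors found on T and NK cells, had log2 fold changes of 0.62 ± 0.81 and 0.44 ± 0.62 (edgeR adjusted p = 0.605 and 0.632), and the values were 1.40 for Cxcr3 without WT replicate 4 and -0.065 for Cxcr6 without NASH replicate 1. Summed T cell markers were at 5.82 to 9.14 CPM in NASH and 4.96 to 6.51 CPM in WT, with 7 of 10 tested and none called.

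No atypical receptor passed. Ackr2, a decoy for inflammatory CC ligands, was at 2.40, 5.74, 2.82 and 7.21 CPM in NASH and at 4.25, 3.72, 3.73 and 3.78 CPM in WT. NASH libraries lay on both sides of a narrow WT range (log2 fold change 0.23 ± 0.35, edgeR adjusted p = 0.657), and the sign turned to -0.10 without NASH replicate 4. Ackr3, which takes up CXCL12, had a log2 fold change of 1.24 ± 0.58 (edgeR adjusted p = 0.154), or 0.65 without NASH replicate 3, and Ackr4, which takes up CCL19, CCL21 and CCL25, one of -1.27 ± 0.56 (edgeR adjusted p = 0.135). Without NASH replicate 1, Ackr4 was at -1.99 and passed (edgeR adjusted p = 0.0176). Ackr1, listed under its former symbol Darc and so outside the naming rule, had a log2 fold change of 0.70 ± 0.48 (edgeR adjusted p = 0.312).

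Monocyte and macrophage markers were set beside the receptors. The summed level of 6 monocyte markers was 10.0, 10.1, 102 and 69.2 CPM in NASH replicates 1 to 4 and 3.77 to 6.20 CPM in WT, with 2 tested and 1 of them, Plac8, higher. Most of the sum in NASH replicates 3 and 4 was Chil3 (53.9 and 23.6 CPM) and F13a1 (23.5 and 18.9 CPM). Both were below the filter, and neither was above 0.709 CPM in NASH replicates 1 and 2, where Plac8 was most of the sum. Plac8 was also highest in NASH replicates 3 and 4, at 14.4 and 15.8 CPM. Of 9 macrophage and Kupffer cell markers, all tested, Cd68 and Cd5l were higher and Cd163 lower, and the sum was 413, 405, 1345 and 915 CPM in NASH and 149 to 468 CPM in WT. Cd5l alone was at 171, 199, 767 and 502 CPM in NASH replicates 1 to 4. Log2 fold changes were positive for 5 of the 9, while Timd4, Marco and Csf1r were at -1.10, -1.43 and -0.14 and did not pass. Csf1r, a defining macrophage receptor, was at most 0.598 CPM in any of the 8 libraries although other macrophage markers were plainly detected, and whether the counting missed its reads is not known. NASH replicates 3 and 4 were the high libraries for both sums, as for Ccr1, Ccr2 and Cx3cr1, and the part of these cells in the receptor values was not tested.

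**Figure D2:**
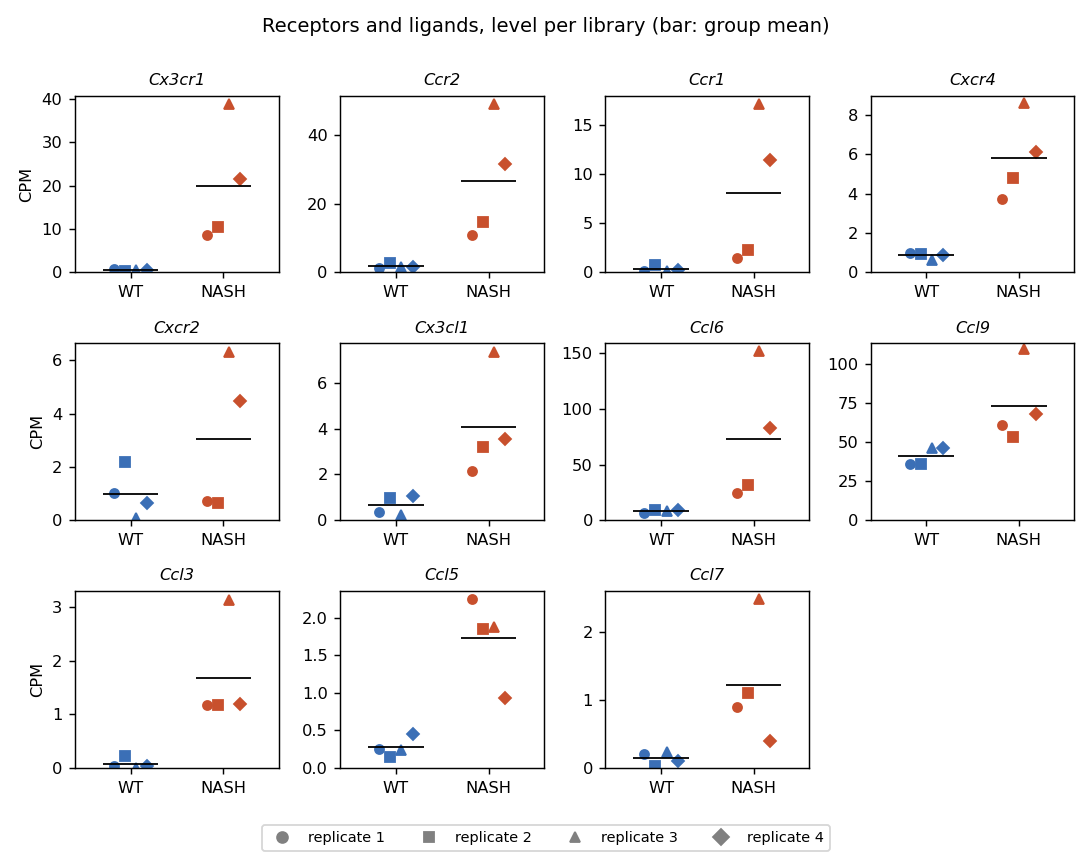
Level (CPM, linear y axis from 0, own scale per gene) of 5 receptors and 6 ligands in 4 WT and 4 NASH libraries, with marker shape for the replicate number and a line at the group mean. The groups are apart for each gene but Cxcr2, where NASH replicates 1 and 2 fall within the WT range.

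CC ligands, of which most are encoded together on chromosome 11, were also higher where they passed. Of 10 tested CC ligands, 5 rose (Ccl3, Ccl5, Ccl6, Ccl7 and Ccl9), none fell and 5 did not pass, with a median log2 fold change of 1.43. By position, 6 of the 7 tested members on chromosome 11 rose, counting Cxcl16, and 4 of the 7 on chromosome 9, Ccr1, Ccr2 and Cx3cr1 among them. Over all genes tested, 12.9% were higher in NASH. Both chromosomes hold 14 member rows, of which 7 on each were below the filter. Ccl3, Ccl5, Ccl7, Ccr1 and Cx3cr1 were above the filter's cutoff in each NASH library but not in each WT library. They could thus enter the test through the group where they were higher. On chromosome 5, which holds most CXC ligands and Ccl24, 1 of 7 tested members rose and 1 fell.

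Ccl6 (ENSMUSG00000018927, chr11:83587882-83593087), a mouse ligand of CCR1 made by myeloid cells, was at 24.6, 31.8, 152 and 83.2 CPM in NASH and at 6.87, 8.86, 8.60 and 8.78 CPM in WT. NASH replicate 3 was far above the rest, and the groups did not overlap. The log2 fold change was 3.14 ± 0.54 (edgeR adjusted p = 0.00912), and 2.48 without NASH replicate 3, still past the threshold. Ccl9 (ENSMUSG00000019122, chr11:83572919-83578636), its neighbour and also a CCR1 ligand of the mouse, was at 61.0, 53.5, 109.8 and 67.9 CPM in NASH and at 36.2, 36.1, 46.4 and 46.4 CPM in WT. The gap between the groups was small beside that of Ccl6, with a log2 fold change of 0.82 ± 0.22 (edgeR adjusted p = 0.0317). Ccl9 did not pass without NASH replicate 4 (log2 fold change 0.84, edgeR adjusted p = 0.0657) or without WT replicate 1, 2, 3 or 4 (0.76 to 0.88, edgeR adjusted p = 0.0945, 0.0834, 0.0635 and 0.0611). Per kilobase of exon, Ccl6 was at 40.6 CPM in NASH, next to the 40.7 CPM of Cxcl12, and at 4.61 CPM in WT, while Ccl9 was at 24.0 and 13.6 CPM.

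Ccl3 (ENSMUSG00000000982, chr11:83647844-83649355), a CCR1 ligand of activated macrophages, was at 1.18, 1.18, 3.15 and 1.20 CPM in NASH and at 0.0421, 0.219, 0 and 0.0350 CPM in WT. These levels rest on 222 counts in NASH and 8 in WT. No NASH library overlapped WT, with a log2 fold change of 4.44 ± 0.81 (edgeR adjusted p = 0.0105) that was 5.86 without WT replicate 2. Ccl5 (ENSMUSG00000035042, chr11:83525778-83530518), a ligand of CCR1 and CCR3 made by T and NK cells among others, was at 2.25, 1.85, 1.88 and 0.931 CPM in NASH and at 0.253, 0.146, 0.240 and 0.455 CPM in WT. The groups did not overlap, and Ccl5 was the one risen member whose highest NASH library was replicate 1. Its log2 fold change was 2.64 ± 0.47 (edgeR adjusted p = 0.00990).

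Ccl7 (ENSMUSG00000035373, chr11:82045712-82047525), a CCR2 ligand, was at 0.906, 1.11, 2.49 and 0.399 CPM in NASH and at 0.211, 0.0365, 0.240 and 0.105 CPM in WT. The groups did not overlap, although NASH replicate 4 came near WT, and the totals were 163 and 16 counts. The log2 fold change was 3.03 ± 0.72 (edgeR adjusted p = 0.0209), and 2.40 without NASH replicate 3. It did not pass without WT replicate 1, 2 or 4 (log2 fold change 3.22, 2.71 and 2.89, edgeR adjusted p = 0.0574, 0.0539 and 0.0611), nor with limma-voom (adjusted p = 0.0591). Ccl2, the principal CCR2 ligand, lies beside Ccl7 and was at 2.21, 1.74, 15.6 and 2.36 CPM in NASH and at 2.36, 3.17, 0.274 and 1.22 CPM in WT. Only NASH replicate 3 was above the WT range. The Ccl2 log2 fold change of 1.66 ± 0.87 did not pass (edgeR adjusted p = 0.199) and was 0.25 without NASH replicate 3 (edgeR adjusted p = 0.815).

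Among the remaining CC ligands, Ccl24, a CCR3 ligand that attracts eosinophils, was at 1.58, 1.63, 1.19 and 3.12 CPM in NASH and at 0.421, 0.911, 1.03 and 0.874 CPM in WT, and is named after its values were seen. The groups did not overlap, but the log2 fold change of 1.21 ± 0.43 did not pass (edgeR adjusted p = 0.0759). Ccl27a was at 9.10, 4.78, 3.5 and 3.99 CPM in NASH and at 6.61, 6.85, 7.23 and 6.79 CPM in WT. NASH replicate 1 was above WT and the other 3 below it, the log2 fold change was -0.37 ± 0.29 (edgeR adjusted p = 0.383), and without NASH replicate 1 it was -0.75 and passed (edgeR adjusted p = 0.0176). Ccl27a has near-identical copies, so its reads may be shared with Ccl27b and its values are less certain. Ccl25 and Ccl28 had log2 fold changes of -0.66 ± 0.53 and 0.17 ± 0.65 (edgeR adjusted p = 0.396 and 0.871). The sign of Ccl28 turned without NASH replicate 1, NASH replicate 2 or WT replicate 3 (-0.14, -0.02 and -0.10).

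Both members that fell were CXC ligands that guide homing cells. Of 8 tested CXC ligands, 2 rose (Cxcl5 and Cxcl16), 2 fell (Cxcl12 and Cxcl13) and 4 did not pass. Over all genes tested, 12.9% were higher in NASH and 6.00% lower. Cxcl2 and Cxcl5 were above the filter's cutoff in each NASH library but not in each WT library, and Cxcl13 the reverse. Ligand sums did not follow the receptor sums: summed over 33 ligand rows, the level was 530, 464, 657 and 621 CPM in NASH and 648, 724, 679 and 712 CPM in WT. Cxcl12 alone made up 63.2, 60.6, 29.9 and 52.6% of member counts in NASH and 77.9, 70.1, 84.9 and 66.1% in WT. As a share of all counts, the 56 rows held 0.0551 to 0.116% in NASH and 0.0580 to 0.0670% in WT (exact two-sided permutation test, p = 0.429, adjusted over 2 library measures 0.429).

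Cxcl12 (ENSMUSG00000061353, chr6:117168535-117181367), the ligand of CXCR4 and ACKR3, was at 367, 318, 249 and 396 CPM in NASH and at 518, 521, 589 and 481 CPM in WT. Each NASH library was below each WT library, at 332 ± 64.2 against 527 ± 44.8 CPM (SD, n = 4 each). The log2 fold change was -0.67 ± 0.18 (edgeR adjusted p = 0.0349). With library totals alone it was -0.33 and did not pass (edgeR adjusted p = 0.125). It also failed without NASH replicate 2 (-0.66, edgeR adjusted p = 0.0657) and without WT replicate 1, 2, 3 or 4 (-0.71 to -0.61, edgeR adjusted p = 0.0884, 0.0767, 0.0949 and 0.0645). Per kilobase of exon it remained first among the members in both groups, at 40.7 CPM in NASH and 64.5 CPM in WT.

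Cxcl13 (ENSMUSG00000023078, chr5:95956951-95961068), which draws B cells through CXCR5, was at 0.985, 0.0370, 0.863 and 0.0332 CPM in NASH and at 16.9, 38.8, 1.47 and 6.02 CPM in WT. The groups did not overlap, but WT ranged widely and WT replicate 3 was close to the highest NASH libraries. The totals were 61 counts in NASH and 1682 in WT, and the log2 fold change was -5.01 ± 1.15 (edgeR adjusted p = 0.0193). Cxcl13 was above the filter's cutoff in each WT library but in only 2 NASH libraries, so it could enter the test through the group where it was higher. The call was lost without NASH replicate 4 and without either of WT replicates 1 and 2 (log2 fold change -4.64, -4.98 and -4.06, edgeR adjusted p = 0.0514, 0.0533 and 0.0521), and limma-voom did not call it (-5.16, adjusted p = 0.181). The summed level of the 9 macrophage and Kupffer cell markers in WT replicates 1 to 4 was 287, 468, 149 and 285 CPM. WT replicate 2 was highest and WT replicate 3 lowest for these markers as for Cxcl13. The same held for summed neutrophil, monocyte, endothelial and stellate cell markers, among others, but not for T cell or hepatocyte markers. In NASH the macrophage and Kupffer cell sum was 405 to 1345 CPM, with Cd5l alone at 171 to 767 CPM, where Cxcl13 was at 0.0332 to 0.985 CPM. The part of these cells in the Cxcl13 values was not tested. Cxcr5, the receptor, had 32 counts in NASH and 8 in WT and was below the filter.

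Cxcl16 (ENSMUSG00000018920, chr11:70453983-70459984), a membrane-bound ligand of CXCR6, was at 4.41, 4.03, 10.4 and 6.78 CPM in NASH and at 2.36, 4.01, 2.02 and 2.34 CPM in WT. NASH replicate 2 and WT replicate 2 were almost level, though the groups did not overlap. Its log2 fold change was 1.26 ± 0.35 (edgeR adjusted p = 0.0373). Leaving out NASH replicate 3 or 4 ended the call (0.91 and 1.21, edgeR adjusted p = 0.0794 and 0.0897), as did leaving out WT replicate 1, 3 or 4 (1.19, 1.13 and 1.19, edgeR adjusted p = 0.104, 0.0978 and 0.0929), and limma-voom did not call it (adjusted p = 0.0576).

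Cxcl5 (ENSMUSG00000029371, chr5:90759360-90761624), a CXCR2 ligand that attracts neutrophils, was at 0.906, 0.814, 3.04 and 0.499 CPM in NASH and at 0.253, 0.255, 0 and 0.175 CPM in WT. NASH and WT did not overlap, with NASH replicate 3 the highest, and the totals were 180 and 18 counts. Cxcl5 had a log2 fold change of 2.95 ± 0.85 (edgeR adjusted p = 0.0396). It passed only when NASH replicate 1 was the library left out. Without NASH replicate 2, 3 or 4 it was 3.10, 2.09 and 3.20 (edgeR adjusted p = 0.0521, 0.106 and 0.0534), and without WT replicates 1 to 4 it was 3.18, 3.21, 2.52 and 2.96 (edgeR adjusted p = 0.0901, 0.0771, 0.0690 and 0.0943). Limma-voom did not call it either (adjusted p = 0.0739).

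Cxcl1 and Cxcl2, the CXCR2 ligands whose promoters are printed above, did not pass. Cxcl1 was at 18, 9.55, 75.1 and 38.2 CPM in NASH and at 43.0, 89.1, 7.88 and 145 CPM in WT. The groups overlapped over most of their range, with means of 35.2 ± 29.2 and 71.2 ± 59.3 CPM (SD, n = 4 each) and a log2 fold change of -1.01 ± 0.81 (edgeR adjusted p = 0.391). It was -1.71 without NASH replicate 3 and -0.41 without WT replicate 4, and neither passed. Cxcl2, named after its values were seen, was at 0.867, 1.18, 4.08 and 0.864 CPM in NASH and at 0.0842, 0.401, 0.103 and 0.805 CPM in WT. Groups did not overlap for Cxcl2, but the lowest NASH and highest WT libraries nearly met, and the log2 fold change of 2.31 ± 0.80 missed the threshold (edgeR adjusted p = 0.0705). It was 2.53 and passed without NASH replicate 1 (edgeR adjusted p = 0.0451), but did not pass at 1.44 without NASH replicate 3 (adjusted p = 0.208) or at 3.13 without WT replicate 4 (adjusted p = 0.0559). Cxcl3 had 10 counts in NASH, all in replicate 3, and none in WT.

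The interferon-inducible CXCR3 ligands Cxcl9 and Cxcl10 did not pass either. Cxcl9 was at 26.5, 21.4, 10.8 and 9.11 CPM in NASH and at 9.60, 8.93, 11.7 and 8.33 CPM in WT. NASH replicates 1 and 2, the lowest libraries for most risen members, were here the highest, and replicates 3 and 4 lay within WT. The log2 fold change of 0.81 ± 0.33 (edgeR adjusted p = 0.111) became 1.10 and passed with library totals alone (edgeR adjusted p = 0.0195). Cxcl10 was at 4.29, 3.85, 4.24 and 1.69 CPM in NASH and at 2.95, 2.33, 1.85 and 1.08 CPM in WT. NASH replicate 4 fell within WT and the other 3 above it, with a log2 fold change of 0.78 ± 0.39 (edgeR adjusted p = 0.178).

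**Figure D3:**
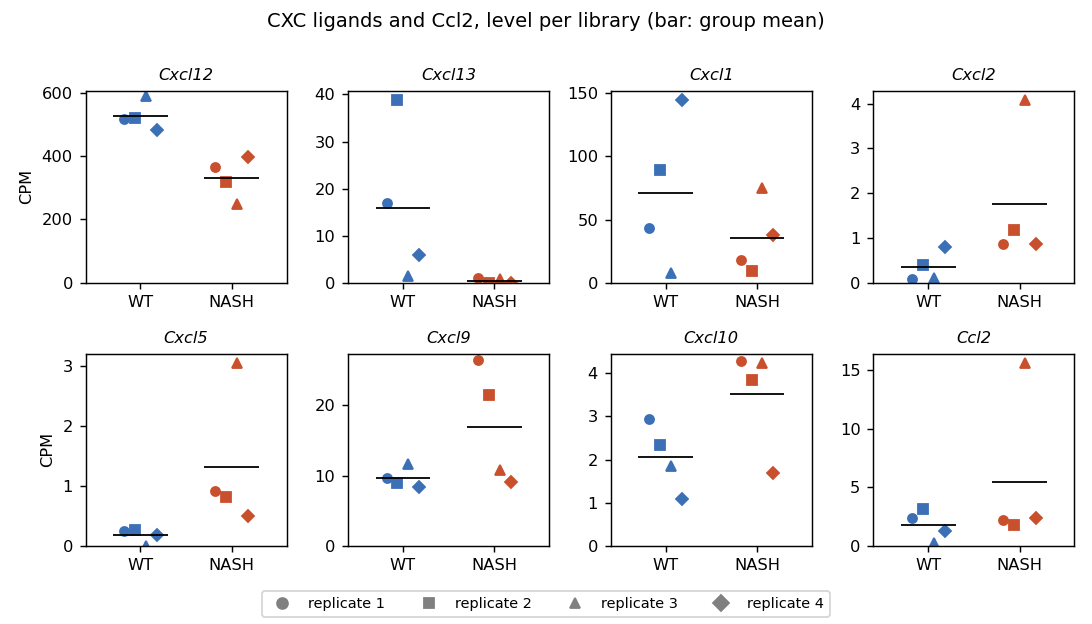
Level (CPM, linear y axis from 0, own scale per gene) of 7 CXC ligands and Ccl2 in 4 WT and 4 NASH libraries, with marker shape for the replicate number and a line at the group mean. Cxcl12 and Cxcl13 are lower in NASH without overlap, while Cxcl1 and Ccl2 overlap and Ccl2 is high in NASH replicate 3 alone.

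NASH replicate 3 was highest for 12 of the 13 that rose, and replicate 1 for Ccl5. NASH replicate 1 was lowest for 8 of them, replicate 4 for 3 and replicate 2 for 2. Left out in turn, replicate 3 took 2 of the 15 calls (Cxcl16 and Cxcl5) and replicate 1 took none. Leaving out WT replicate 1 took more than any other library, with 7 members called, and over all genes the count then fell from 2338 to 821. Of the 15 called members, 7 passed whichever library was left out, among them Ccl3, Ccl5, Ccl6, Ccr2, Cx3cr1 and Cxcr4.

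**Figure D4:**
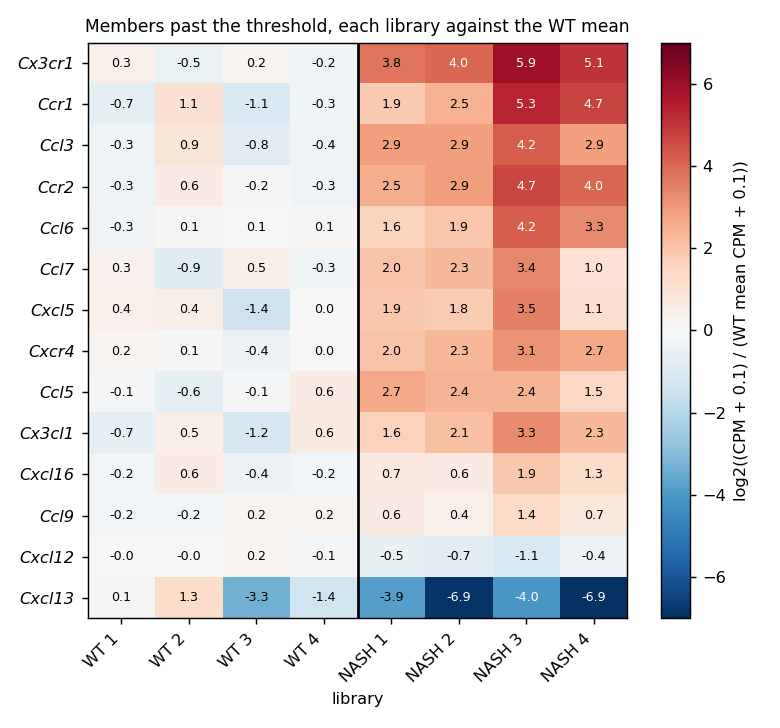
Log2 of (CPM + 0.1) over (WT mean CPM + 0.1) for members past the threshold (rows) in each library (columns, 4 WT then 4 NASH), with red above and blue below the WT mean. NASH replicate 3 is the reddest NASH column for 11 of the 12 risen members plotted, and Cxcl12 and Cxcl13 are blue in each NASH library.

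Below the filter lay 26 members, with group means up to 0.554 CPM (Ccl22, 62 counts in NASH and 14 in WT). Of these, 11 had no WT count and 23 had more counts in NASH than in WT, at a depth where single genes cannot be tested well. The same shares were not worked out for all 3771 genes below the filter, so these counts cannot be read as particular to the members. Ccr3, the eotaxin receptor of eosinophils, had 4, 19, 7 and 17 counts in NASH and none in WT, which is at least 14.0-fold higher when 3 counts over the WT group are taken as the limit. It was tested only without the filter and then passed (edgeR adjusted p = 0.0227). The lymphoid-homing receptor Ccr7 had 59 and 21 counts, its ligands Ccl19 and Ccl21a 31 and 14 and 18 and 22, Xcl1 26 and 10 and its receptor Xcr1 40 and 31. Ccl21a has near-identical copies and is less certain. The CC ligand Ccl4, next to Ccl3, had 5 counts in NASH and none in WT, and Ccl12, a mouse CCR2 ligand, 10 and none. The other 15 rows, leaving aside Cxcr5 and Cxcl3 above, had at most 19 counts in either group.

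Genes downstream of chemokine receptors and 3 related lists were read against the same background, 12.9% of all genes tested higher and 6.00% lower. All these lists were chosen with earlier results of these data known, so their shares only describe the lists. Of 39 genes of a chemokine signalling list (G proteins, kinases, exchange factors), all tested, 19 rose (48.7%), none fell and the median log2 fold change was 0.70. Elmo1, which with DOCK2 drives actin remodelling in migrating cells, was at 7.88, 9.11, 19.4 and 13.2 CPM in NASH and 2.23, 2.92, 2.33 and 2.06 CPM in WT, a log2 fold change of 2.38 ± 0.30 (edgeR adjusted p = 0.00378). The phospholipase Plcb2 rose by 1.96 ± 0.37 on the log2 scale (edgeR adjusted p = 0.0112). The count was 8 without NASH replicate 4, 6 without WT replicate 1, 6 without WT replicate 3 and 7 without WT replicate 4, and limma-voom called 10.

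Of 14 chemokine-related entries, 11 were found outside the naming rule and 10 were tested. Of these 10, 5 rose (50%: Cd74, Gpr35, Cmklr1, Pf4 and Cmtm3), none fell and the median was 1.08. Among the entries not found, Ccbp2 and Ccrl1 are former symbols of Ackr2 and Ackr4, which are members under the naming rule. Cd74, a receptor for the chemokine-like cytokine MIF and the invariant chain of MHC class II, was at 135, 159, 223 and 123 CPM in NASH and 43.2, 58.0, 30.0 and 35.2 CPM in WT (log2 fold change 1.94 ± 0.25, edgeR adjusted p = 0.00384). Gpr35 rose by 3.60 ± 0.68 (edgeR adjusted p = 0.0113), or 2.90 without NASH replicate 3, and the chemerin receptor Cmklr1 by 1.90 ± 0.38 on the log2 scale (edgeR adjusted p = 0.0128). The count was 3 without NASH replicate 4, without WT replicate 1, without WT replicate 2 and without WT replicate 3, and limma-voom called 2.

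Of 14 other chemoattractant receptors, 12 were tested and 4 rose (33.3%), with none lower and a median of 1.21. Ptafr, the receptor for platelet-activating factor, rose by 2.85 ± 0.33 (edgeR adjusted p = 0.00343) and the complement receptors C5ar1 and C3ar1 by 3.11 ± 0.61 and 2.64 ± 0.57 on the log2 scale (edgeR adjusted p = 0.0128 and 0.0159). Without NASH replicate 3, C5ar1 was at 2.47, and without WT replicate 1, C3ar1 did not pass (2.66, edgeR adjusted p = 0.0529) and 2 receptors were called. Of 14 proteases known to cut chemokines, 11 were tested and 7 rose (63.6%), with none lower and a median of 1.23. Mmp12, the macrophage elastase, was at 47.3, 54.0, 299 and 104 CPM in NASH and 1.35, 1.82, 1.54 and 1.78 CPM in WT (log2 fold change 6.27 ± 0.67, edgeR adjusted p = 0.00271, 5.38 without NASH replicate 3). Mmp13 rose by 5.17 ± 0.50 (edgeR adjusted p = 0.00199) and Mmp2, which trims CXCL12, by 1.66 ± 0.25 on the log2 scale (edgeR adjusted p = 0.00613). Without WT replicate 1 or WT replicate 3, 4 proteases were called.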

How the data were processed

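Raw read counts per gene, deposited by the authors for 16122 protein-coding genes in 8 libraries, were used as deposited, and the normalized values in 8 further columns were not used. The submitters' processing notes name HISAT2, HTSeq 0.9.1 and the builds mm9 and mm10, without roles. Totals of NASH replicates 1 and 4 (26270597 and 26270596) differ by 1 count although their gene counts differ, so whether the deposited counts had been rescaled is not known. What strand setting and annotation the counting used was not given in the sources used here. Coordinates and exon lengths come from GENCODE M21 (GRCm38), matched by Ensembl identifier (55 of 56 member rows).

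Groups follow the sample labels. Genes were filtered with edgeR's default filter (minimum count 10, leaving 12351), scaled by TMM and tested with edgeR 4.0.16 (R 4.3.3), using the robust quasi-likelihood F-test without covariates and Benjamini-Hochberg adjustment. The script was tested on simulated data. Alternatives were DESeq2 1.42.0, limma-voom (limma 3.58.1), other scalings and filters, a replicate block and leaving out each library. Values in each library are given for members past the threshold and the 6 others with the highest mean, and up to 3 genes with the smallest adjusted p are named from each list. Members and lists were chosen with earlier results of these data known. Single-gene results of 1 member and 1 list gene are not reported here, and counts include both.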

Additional observations from a re-analysis of the deposited data

Results flagged for a closer look

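In 8 of 42 groups of 4 libraries checked for a single distant library, 1 library stood farther from its nearest neighbour than Dixon's 95% limit allows. Chance alone marks about 1 in 20 independent groups of normally distributed values. The groups here come from the same 8 libraries and are not independent, so 8 of 42 cannot be read as an excess. In NASH replicate 3, Ccl3 was at 3.15 CPM (nearest 1.20), Cxcl5 at 3.04 CPM (nearest 0.906) and Ccl2 at 15.6 CPM (nearest 2.36). In NASH replicate 4, Cxcl10 was low at 1.69 CPM (nearest 3.85). In WT replicate 2, Ccr2 was at 2.77 CPM (nearest 1.64) and Cxcl16 at 4.01 CPM (nearest 2.36). In WT replicate 1, Ccl6 was low at 6.87 CPM (nearest 8.60) and Ackr2 high at 4.25 CPM (nearest 3.78).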

How the results depend on the processing

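The count of 15 members called was 15 with DESeq2 size factors, 17 with library totals alone, 16 without the filter, 17 with the DESeq2 test and 10 with limma-voom. It was 9 of 15 tested with a minimum count of 50, where the other 6 calls were lost because the genes were no longer tested. Leaving out each library gave 7 to 18 members and 821 to 3742 genes of 2338, and the DESeq2 test gave 3527 genes. For the lists, leaving out each library gave 6 to 22 signalling genes, 3 to 5 related genes, 2 to 4 chemoattractant receptors and 4 to 9 proteases, and limma-voom gave 10 signalling and 2 related genes. Ackr2 turned from 0.23 to -0.10 without NASH replicate 4, and leaving out each library gave -0.10 to 0.43. Limma-voom did not call Ccl7, Ccr1, Cxcl5, Cxcl13 or Cxcl16, and the cause was not tested. No member changed sign with another scaling.

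The replicate numbers did not pair the libraries: deviations of NASH and WT libraries with the same number correlated at 0.03, -0.14, -0.14 and -0.02. A fit with the number as a replicate block called 618 genes and 6 members, with 1 signalling gene, 3 related genes, 1 chemoattractant receptor and 3 proteases. Depth limits the 26 members below the filter and those with few WT counts, such as Ccl3.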
